A study of Mus musculus with 6 samples.

Results

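The genes described here are the nuclear genes that encode subunits of the 5 oxidative phosphorylation complexes, measured in the tibialis anterior (TA) muscle of aged mice. Members were chosen by symbol and by the protein_coding label from the rows of the deposited TPM tables (transcript levels corrected for length and for the total of each library): the Nduf subunit families, Sdha to Sdhd, the Uqcr family and Cyc1, the Cox4 to Cox8 families, and the Atp5 family. Assembly factors with Ndufaf symbols and pseudogenes were left out. This gave 84 of the 13447 protein_coding genes in the TPM tables, which list 16800 genes in all, and each of the 84 was found in the count table. By complex there were 37 genes for complex I, 4 for complex II, 9 for complex III, 17 for complex IV and 17 for complex V. Ndufa4 and Ndufa4l2 were counted with complex IV, with which the Ndufa4 protein is now known to associate. A further 6 rows fitted the symbol patterns but were not labelled protein_coding, and were not used.

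The study asked whether BML-260, a small molecule reported to target the phosphatase DUSP22, counteracts the muscle wasting of aging. RNA-Seq was performed on the TA muscle of male C57BL/6J mice labelled 24 months old, 3 given vehicle (DMSO and Tween 80) and 3 given BML-260 at 5 mg/kg by intraperitoneal injection, daily for 4 weeks. Both groups were therefore aged and injected, and no young or untreated muscle was compared. Each mouse gave 1 library, prepared from total RNA with a stranded kit.

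Oxidative phosphorylation couples the oxidation of fuels to ATP synthesis in the inner mitochondrial membrane. Complexes I and II pass electrons from NADH and succinate to ubiquinone, complex III passes them to cytochrome c, complex IV passes them to oxygen, and complex V uses the resulting proton gradient to make ATP. Most subunits are encoded in the nucleus and a few in mitochondrial DNA, so that an assembled complex (except complex II, which is wholly nuclear) needs both genomes. Skeletal muscle also uses its own isoforms of several complex IV subunits, among them Cox6a2, Cox7a1 and Cox8b, in place of the widely expressed Cox6a1, Cox7a2 and Cox8a.

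Between 39522890 and 56998875 counts fell on genes in each library, and the subunits received between 28 and 135816 counts per gene and library, so that counting error was small for all but the least abundant genes. In what follows, CPM is the TMM-scaled count on a common library size, and values are given in the order of replicates 1, 2 and 3. Fast IIb fiber genes, the markers of the main fiber type of the TA muscle, summed to between 50249 and 100220 CPM per library, and slow fiber genes to between 74.2 and 358 CPM. Vehicle replicate 3 stood apart from the other libraries in the subunits themselves. Their summed level was 25028, 25100.0 and 14610.0 CPM in the vehicle libraries and 27171, 24036 and 21901 CPM in the BML-260 libraries. Vehicle replicates 1 and 2 lay among the BML-260 libraries, and vehicle replicate 3 lay below all of them. It was the lowest of the 6 libraries for 77 of the 84 subunits, a place it took for 32.1% of all 16188 tested genes. The median subunit was lower by 0.77 on the log2 scale there than in the mean of vehicle replicates 1 and 2, beside a median difference of -0.01 over all tested genes. BML-260 replicate 1 was the highest library for 57 subunits. On the TPM scale vehicle replicate 3 was the lowest library for 43 subunits and BML-260 replicate 3 for 24, so the place of vehicle replicate 3 depends in part on how the libraries are scaled. The main comparisons below are therefore also given without vehicle replicate 3. Among the BML-260 libraries, replicate 3 was the lowest for 59 of the 84 subunits.

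**Figure D1:**
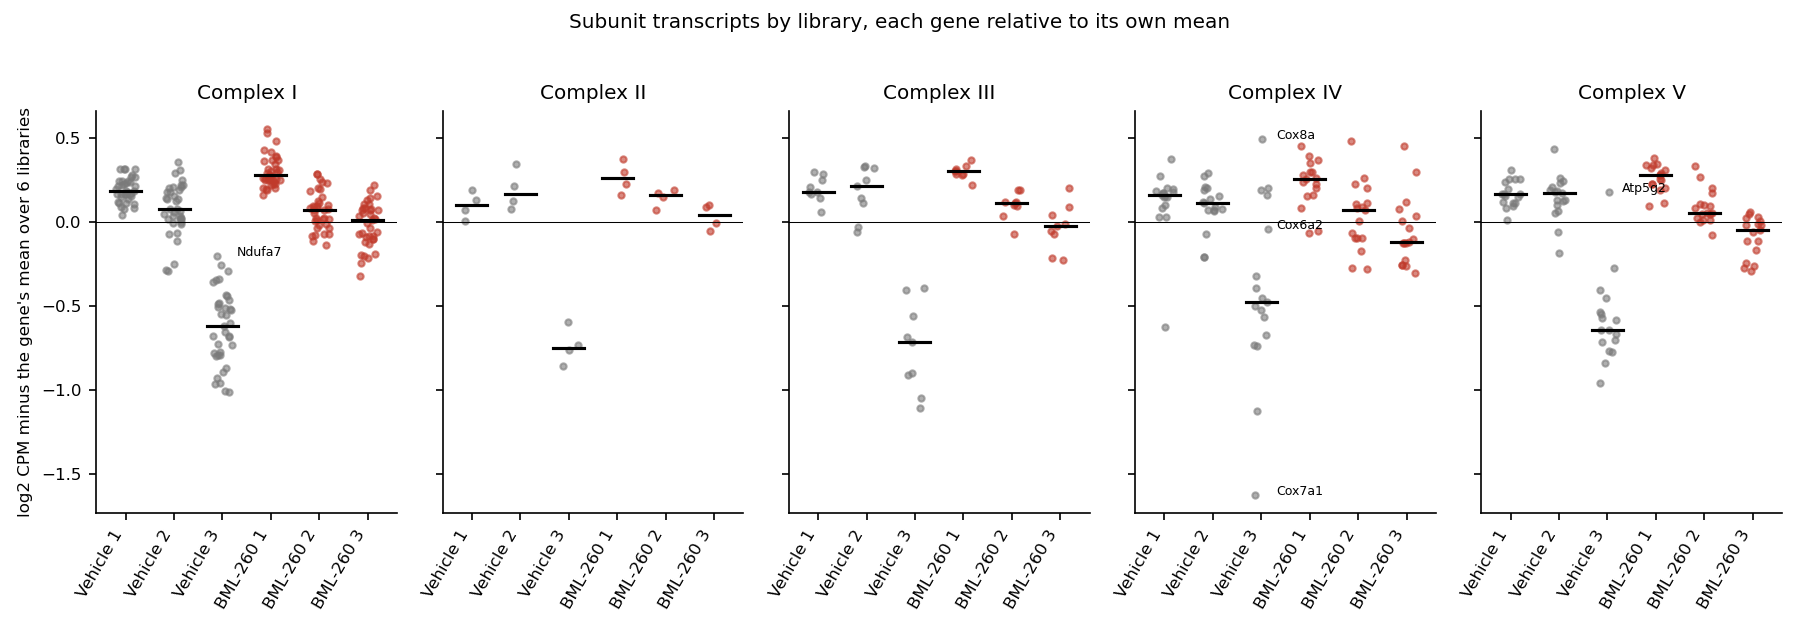
Level of each subunit transcript in each library, as log2 CPM minus the mean of that gene over the 6 libraries, in 1 panel per complex (grey, vehicle; red, BML-260; black bar, median of the genes). Nearly all genes sit lowest in vehicle replicate 3, where Cox7a1 is the farthest below its mean and Cox8a is above it.

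Together the 84 subunits held 4.89%, 4.54% and 4.096% of the TPM of the vehicle libraries and 4.82%, 4.85% and 4.26% of the TPM of the BML-260 libraries. The groups overlapped. The difference of the means (BML-260 minus vehicle) was 0.133 percentage points, and it was -0.074 without vehicle replicate 3. Complex V took the largest part of this in every library, between 1.38% and 1.64% of the TPM, and complex II the smallest, between 0.114% and 0.156%.

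TPM makes the levels of single subunits comparable between genes. Atp5b, the catalytic beta subunit of ATP synthase, was the most abundant of all 84, with 1901 ± 267 TPM (SD, n = 3) in vehicle and 2031 ± 59.3 TPM (SD, n = 3) in BML-260 muscle. Within complex V the lowest mean over 6 libraries was that of Atp5d, the delta subunit of the central stalk. It had 236 ± 40.1 TPM in vehicle and 285 ± 16.0 TPM in BML-260 muscle (SD, n = 3 each). In BML-260 muscle alone Atp5g2 was lower, with 250 ± 19.4 TPM (SD, n = 3). Median levels over 6 libraries were 910 TPM for the genes of complex V, 811 for complex IV, 549 for complex III, 329.8 for complex II and 262 for complex I. Complex IV held both very abundant and nearly absent members. Ndufa4 was its highest gene, with 1696 ± 100.2 TPM in vehicle and 1645 ± 299 TPM in BML-260 muscle (SD, n = 3 each), and Cox4i2, an isoform best known from lung, its lowest, with 2.02 ± 1.05 and 2.29 ± 0.455 TPM. In complex I the highest gene was Ndufb9, an accessory subunit of the membrane arm, with 911 ± 140.5 TPM in vehicle and 943 ± 78.2 TPM in BML-260 muscle (SD, n = 3 each). Complex III ran from Uqcr10, a small accessory subunit, with 882 ± 104 and 889 ± 52.9 TPM (vehicle and BML-260, SD, n = 3 each), down to Uqcrq, another small subunit, with 167 ± 23.8 and 175 ± 13.9 TPM. In each of these genes the group means differed by less than the larger SD, except in Atp5d. The Atp5d libraries stood at 223, 281 and 204 TPM in vehicle and 303, 273 and 279 TPM in BML-260, so that the groups overlapped, and the log2 fold change from counts was 0.21 (SE 0.28), and -0.06 without vehicle replicate 3.

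**Figure D2:**
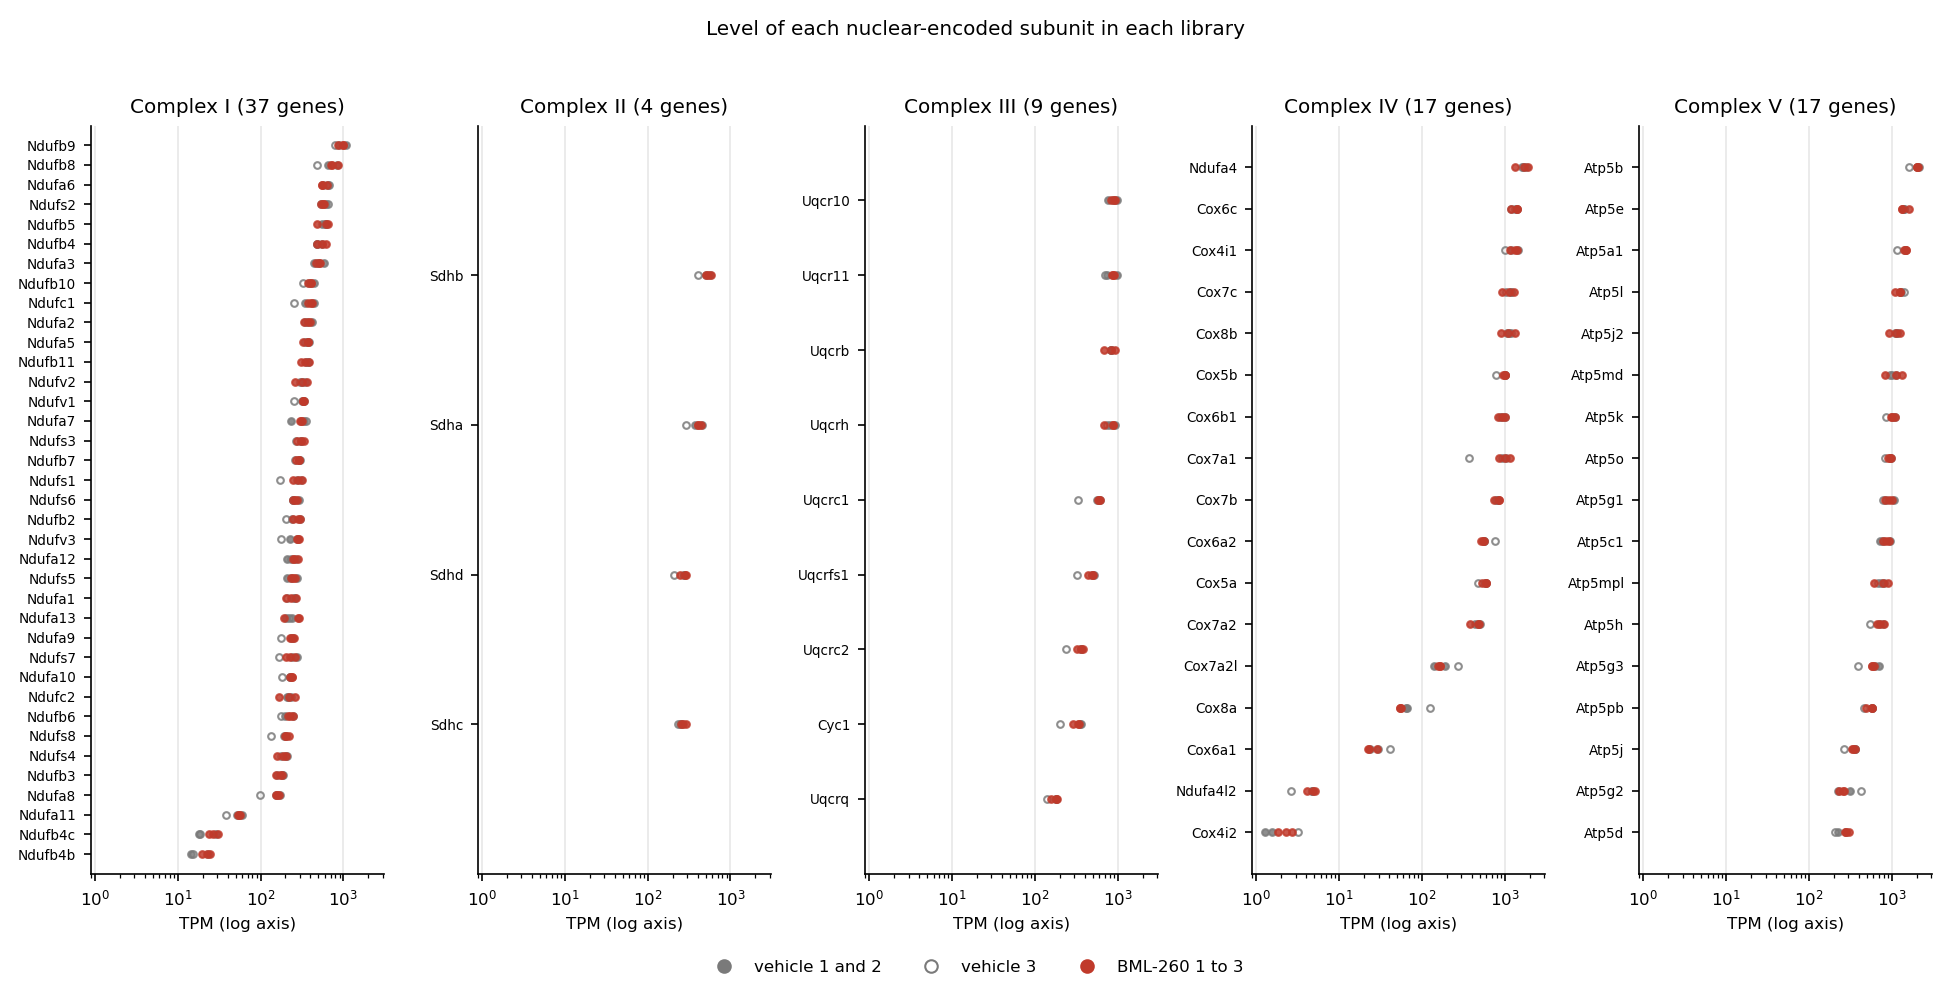
TPM of each subunit in each library on a log axis, sorted by mean within each complex (filled grey, vehicle replicates 1 and 2; open grey, vehicle replicate 3; red, BML-260). Atp5b lies highest, and Cox4i2, Ndufa4l2, Ndufb4b, Ndufb4c and Cox6a1 lie lowest.

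No subunit passed the quasi-likelihood test of edgeR after adjustment over all genes tested (0 of 84 at an adjusted p under 0.05, with adjusted p between 0.788 and 0.991). The same held for all genes (0.0% of 16188 tested, 966 of them with an unadjusted p under 0.05). At an unadjusted p under 0.05 there was 1 subunit with edgeR and 0 with DESeq2's Wald test, which also gave 0 subunits an adjusted p under 0.05. DESeq2 did give an adjusted p under 0.05 to 82 genes that are not subunits. In the direction of the estimates, 79 subunits were above 0 (higher with BML-260) and 5 below, a share of 94.0% above 0 beside 49.5% of all tested genes. On log2 TPM, with either pseudocount, 57 were above 0 and 27 below. The median log2 fold change was 0.168 over the 84 subunits and -0.004 over all tested genes. Without vehicle replicate 3 the counts turned to 24 above 0 and 60 below, and the median to -0.035 (all tested genes, 0.002). The direction of the group difference thus rested on that library. Without BML-260 replicate 1 the median was 0.077, with 68 subunits above 0. A looser threshold was a 1.3-fold change and an unadjusted p under 0.05. There, 0 subunits were higher, where 0.896% of all tested genes were, and 1 was lower (Cox8a), where 4.86% of all tested genes were. In CPM, all 3 BML-260 libraries were above all vehicle libraries for 1 subunit, Sdhc (5.23% of all tested genes). They were below all vehicle libraries for 1, Cox8a (6.91% of all tested genes). In TPM the groups overlapped for Sdhc.

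**Figure D3:**
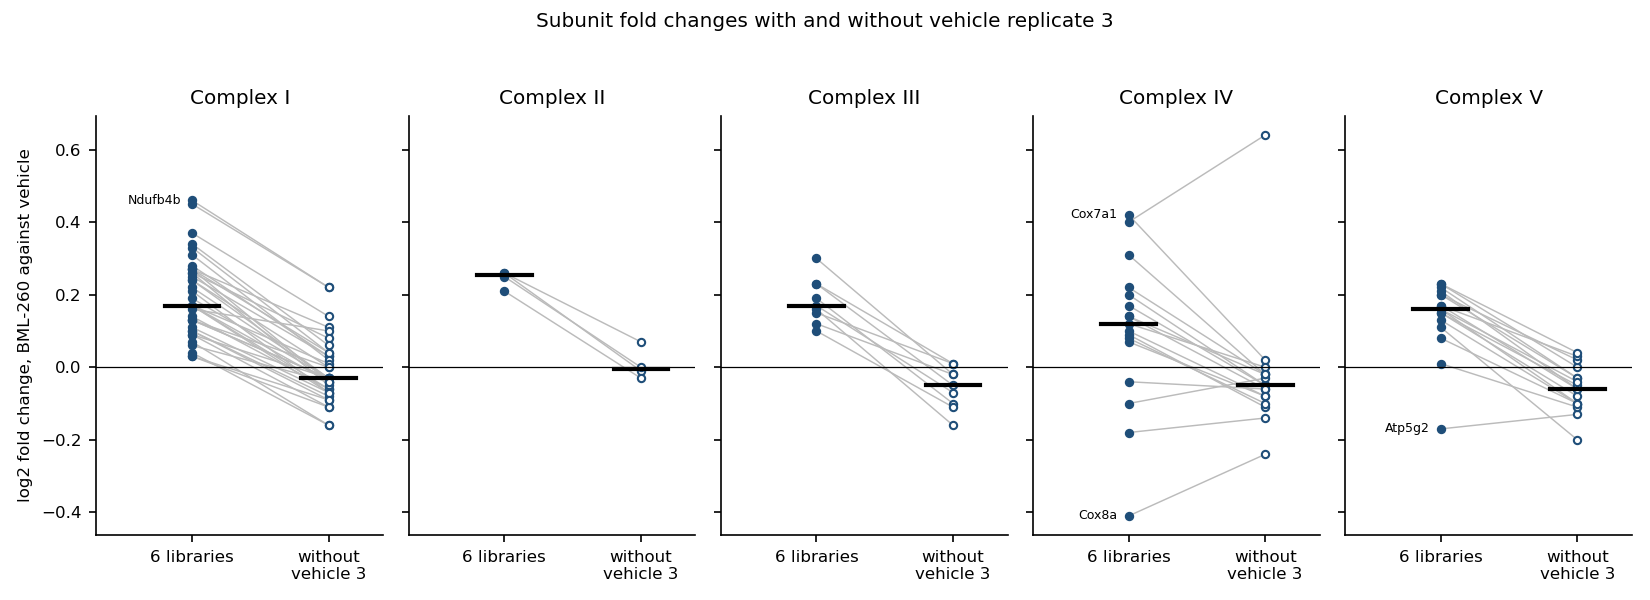
Log2 fold change of each subunit (BML-260 against vehicle) from all 6 libraries (filled) and without vehicle replicate 3 (open), in 1 panel per complex, with lines joining the same gene and black bars at the medians. The medians lie above 0 with 6 libraries and below 0 without vehicle replicate 3 in all 5 complexes.

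In complex I, 37 of 37 estimates were above 0 with a median of 0.175, and without vehicle replicate 3, 14 were above and 23 below with a median of -0.033. The 7 core subunits, which carry the flavin and iron-sulfur clusters, had a median of 0.214 and the 30 accessory subunits one of 0.171, and without vehicle replicate 3 these were -0.037 and -0.032. The smallest p-values belonged to Ndufb4c, Ndufb4b and Ndufv3. Ndufb4b and Ndufb4c are close copies of Ndufb4, an accessory subunit of the membrane arm, so that reads may have been split between them and their values are uncertain. Ndufb4c (chr15:73809449-73809933, GRCm38) had 8.50, 5.61 and 3.95 CPM in the vehicle and 10.01, 6.89 and 7.81 CPM in the BML-260 libraries. For Ndufb4b (chr19:25033108-25033578) the values were 6.75, 4.43 and 3.13 CPM in vehicle and 7.82, 5.50 and 6.31 CPM in BML-260. In both copies the groups overlapped, since vehicle replicate 1 was above BML-260 replicates 2 and 3. Their log2 fold changes were 0.45 (SE 0.29) and 0.46 (SE 0.29). Ndufv3, an accessory subunit of the NADH-oxidizing module, had 85.8, 76.2 and 44.2 CPM in vehicle and 100.4, 81.3 and 85.3 CPM in BML-260, with a log2 fold change of 0.37 (SE 0.24). Each of these 3 genes had an adjusted p of 0.788 with edgeR's quasi-likelihood test. Without vehicle replicate 3 their log2 fold changes were 0.22, 0.22 and 0.14. Without vehicle replicate 1 they were 0.79, 0.80 and 0.57. There, Ndufb4c and Ndufb4b were higher at the fold and p threshold, beside 4.99% of all genes tested in that fit. With the replicate number as a block Ndufb4c was also higher at it (0.50), beside 2.01% of all tested genes. Ndufa7, chosen after its values were seen, was the only complex I gene for which vehicle replicate 3 was not the lowest library, with 108, 79.3 and 82.1 CPM in vehicle and 112, 91.9 and 96.7 CPM in BML-260.

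With all 6 libraries complex II, the succinate dehydrogenase that also serves the TCA cycle, had the highest median of the 5 complexes, 0.251. Of its 4 estimates, 4 were above 0. Without vehicle replicate 1 the median of complex I was higher, 0.357 against 0.345 for complex II. Sdhc, a membrane anchor, had 187, 188 and 118 CPM in vehicle and 199, 200.5 and 190.4 CPM in BML-260. In CPM it was the subunit whose BML-260 libraries all lay above the vehicle libraries, but vehicle replicate 2 and BML-260 replicate 3 were close. In TPM the groups overlapped, with 260, 247 and 229 TPM in vehicle and 252, 289 and 271 TPM in BML-260. Its log2 fold change was 0.26 (SE 0.20). Sdhb, the iron-sulfur subunit, had 368, 353 and 190.3 CPM in vehicle and 419.6, 339.8 and 323 CPM in BML-260, with a log2 fold change of 0.25 (SE 0.26). For Sdha, the flavoprotein that oxidizes succinate, the values were 659, 832 and 363 CPM in vehicle and 767, 749 and 697 CPM in BML-260, with a log2 fold change of 0.26 (SE 0.29). The highest Sdha library was a vehicle library. By edgeR's quasi-likelihood test the adjusted p-values of Sdhc, Sdhb and Sdha were 0.796, 0.823 and 0.83. Without vehicle replicate 3 the median of the complex was -0.004, and the log2 fold changes of Sdhc, Sdhb and Sdha were 0.07, 0.00 and -0.01.

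For complex III, 9 of 9 estimates were above 0 with a median of 0.172, and 2 of 9 were above 0 without vehicle replicate 3, with a median of -0.05. Uqcrc1, which encodes a core protein of the complex, had 574, 656 and 242 CPM in vehicle and 656, 557 and 598 CPM in BML-260. Vehicle replicate 3 was at 0.394 of the mean of vehicle replicates 1 and 2, and the other 5 libraries overlapped. The log2 fold change was 0.30 (SE 0.34). Uqcrc2, the other core protein, had 415, 437 and 197 CPM in vehicle and 453, 419 and 360.4 CPM in BML-260, a log2 fold change of 0.23 (SE 0.29). Uqcr11, a small accessory subunit, had 263, 211 and 134 CPM in vehicle and 266, 220.7 and 229 CPM in BML-260, a log2 fold change of 0.23 (SE 0.24). The adjusted p-values by edgeR's quasi-likelihood test were 0.829, 0.844 and 0.821 for Uqcrc1, Uqcrc2 and Uqcr11. With vehicle replicate 3 left out, their log2 fold changes were -0.02, -0.05 and 0.01.

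Complex IV was the least uniform, with 13 estimates above 0 and 4 below, and a median of 0.117 (-0.055 without vehicle replicate 3). The genes below 0 were Cox8a, Cox6a1, Cox7a2l and Cox6a2. Cox8a, the widely expressed isoform of a small membrane subunit (chr19:7215158-7217616), was the only subunit at the fold and p threshold. It had 21.8, 22.4 and 30.1 CPM in vehicle and 20.6, 17.6 and 17.9 CPM in BML-260, so that all 3 BML-260 libraries were below all vehicle libraries and vehicle replicate 3 was the highest. The log2 fold change was -0.41 (SE 0.17), with an unadjusted p of 0.0389 and an adjusted p of 0.788 by edgeR's quasi-likelihood test. It was -0.24 without vehicle replicate 3 (unadjusted p 0.0966), -0.36 without BML-260 replicate 2 and -0.37 without BML-260 replicate 3, and in none of these 3 analyses was the threshold passed. Nor was it passed with DESeq2 (-0.41), the replicate number as a block (-0.39), voom (-0.27) or limma on log2 TPM plus 1 (-0.54) or plus 0.1 (-0.55). In TPM, Cox8a stood at 65.6, 64.0 and 126.7 in vehicle and 56.6, 54.8 and 55.0 in BML-260. Cox6a1, the widely expressed isoform of another subunit, had 10.3, 8.72 and 10.2 CPM in vehicle and 8.75, 7.57 and 9.66 CPM in BML-260. Its log2 fold change was -0.18 (SE 0.16), and -0.08 without BML-260 replicate 2 and -0.26 without BML-260 replicate 3. Cox4i2 had 0.575, 0.770 and 1.02 CPM in vehicle and 1.13, 0.789 and 1.21 CPM in BML-260, from 28 to 64 counts per library, and its log2 fold change was 0.40 (SE 0.37). The groups overlapped in both, and the adjusted p by edgeR's quasi-likelihood test was 0.802 for each. The lowest value of Cox4i2 was in vehicle replicate 1, and without vehicle replicate 3 its log2 fold change was 0.64. That fold change was 0.21 without vehicle replicate 1 and 0.28 without BML-260 replicate 3. Cox7a2l, a factor of respiratory supercomplex assembly named here after its values were seen, had 125, 97.0 and 128 CPM in vehicle and 119, 105 and 103 CPM in BML-260. Cox8a and Cox7a2l were the only subunits of the 84 whose highest library in CPM was vehicle replicate 3, which in TPM was the highest for 10 subunits.

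The gene whose level was most different in vehicle replicate 3 was also in this complex. Cox7a1, the heart and muscle isoform of a dimer-interface subunit (chr7:30184171-30186030), had 234, 217 and 58.4 CPM in vehicle and 247, 251 and 184 CPM in BML-260. Vehicle replicate 3 was at 0.259 of the mean of vehicle replicates 1 and 2. The log2 fold change was 0.42 (SE 0.44, adjusted p = 0.821 by edgeR's quasi-likelihood test), and 0.02 without that library. The other muscle isoforms did not share this pattern to the same degree. Cox6a2 had 228, 236 and 218 CPM in vehicle and 249, 209.6 and 206 CPM in BML-260, with no library standing apart on this scale. In TPM vehicle replicate 3 was its highest library, with 569, 557 and 759 TPM in vehicle and 566, 541 and 524 TPM in BML-260.

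The promoters of Cox8a, the subunit at the threshold, and of Cox7a1, the subunit farthest from the other libraries in vehicle replicate 3, are shown with those of their partners Cox8b and Cox7a2, because isoforms that fill the same place in a complex can carry different sequence near their start. Each is the first listed RefSeq window of the gene, from 250 bases before to 50 bases after an annotated start (GRCm38.p6), 5′ to 3′ on the strand of the gene. Capitals mark matches, on either strand, to the motifs searched, which in order are the NRF1 core CGCATGCG, the GABP/ETS core CCGGAAG, the YY1 core AAGATGGC, the ERR site TCAAGGTCA, the CCAAT box CCAAT, the TATA box TATAAA and the E-box CAGCTG. The E-box, which muscle regulatory factors can bind, was added after the values were seen.
Cox8a: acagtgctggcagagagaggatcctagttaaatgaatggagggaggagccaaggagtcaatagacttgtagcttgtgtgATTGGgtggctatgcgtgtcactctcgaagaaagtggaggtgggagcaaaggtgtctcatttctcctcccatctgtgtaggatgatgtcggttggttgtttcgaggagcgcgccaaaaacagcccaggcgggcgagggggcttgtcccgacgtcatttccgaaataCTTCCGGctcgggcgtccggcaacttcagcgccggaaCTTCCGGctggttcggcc
Cox8b: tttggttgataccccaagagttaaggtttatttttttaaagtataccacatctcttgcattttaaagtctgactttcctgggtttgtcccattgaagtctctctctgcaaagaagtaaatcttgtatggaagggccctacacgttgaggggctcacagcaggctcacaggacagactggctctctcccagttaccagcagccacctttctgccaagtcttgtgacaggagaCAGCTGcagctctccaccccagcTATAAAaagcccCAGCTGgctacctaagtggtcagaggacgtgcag
Cox7a1: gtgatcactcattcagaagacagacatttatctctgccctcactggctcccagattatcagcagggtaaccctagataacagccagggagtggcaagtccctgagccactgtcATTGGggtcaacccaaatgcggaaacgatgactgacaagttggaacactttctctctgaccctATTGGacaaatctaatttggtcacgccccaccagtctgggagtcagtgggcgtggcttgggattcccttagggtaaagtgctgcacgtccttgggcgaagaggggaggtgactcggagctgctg
Cox7a2: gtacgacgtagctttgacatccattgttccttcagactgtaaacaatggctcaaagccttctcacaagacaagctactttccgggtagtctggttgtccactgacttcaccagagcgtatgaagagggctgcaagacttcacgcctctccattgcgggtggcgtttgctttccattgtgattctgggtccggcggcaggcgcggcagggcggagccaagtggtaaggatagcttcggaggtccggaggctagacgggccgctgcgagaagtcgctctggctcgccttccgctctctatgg
The Cox8a window (chr19:7217567-7217866, minus strand) held 2 GABP/ETS cores in reverse orientation, both close to the start, and a CCAAT box, and no match to TATAAA. The window of its muscle counterpart Cox8b (chr7:140900397-140900696, minus strand) held a match to TATAAA and 2 E-boxes. The TATAAA began 4 bases after the annotated start, and the E-boxes 19 bases before and 16 bases after it. In Cox7a1 (chr7:30183921-30184220, plus strand) there were 2 CCAAT boxes in reverse orientation, and in Cox7a2 (chr9:79759804-79760103, minus strand) no match. The Cox7a2 window lies within the annotated gene (chr9:79755241-79771422), and its outer end was not searched. Such matches describe the sequence and are not evidence of binding.

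In complex V, 16 estimates were above 0 and 1 below, with a median of 0.16 (-0.056 without vehicle replicate 3, 4 above and 13 below). The gene below 0 was Atp5g2, which together with Atp5g1 and Atp5g3 encodes the same mature c subunit of the membrane ring. Atp5g2 had 127, 93.3 and 120.1 CPM in vehicle and 113, 100.5 and 88.5 CPM in BML-260, so the groups overlapped and vehicle replicate 3 was not its lowest library. Its log2 fold change was -0.17 (SE 0.17), and -0.13 without vehicle replicate 3. It was -0.08 without vehicle replicate 1 or without BML-260 replicate 3, and -0.29 without vehicle replicate 2. Atp5md, a small membrane subunit also known as DAPIT, had 247, 232 and 149 CPM in vehicle and 274, 279 and 181 CPM in BML-260, with a log2 fold change of 0.23 (SE 0.25). The third replicate was the lowest in both groups. This was common in the complex, where BML-260 replicate 3 was the lowest BML-260 library for 15 of the 17 genes and vehicle replicate 3 the lowest of all 6 libraries for 16. Atp5e, the epsilon subunit of the central stalk, had 340.5, 369 and 255 CPM in vehicle and 365, 389 and 327 CPM in BML-260, with a log2 fold change of 0.17 (SE 0.19). By edgeR's quasi-likelihood test the adjusted p-values of Atp5g2, Atp5md and Atp5e were 0.816, 0.825 and 0.832. Without vehicle replicate 3 the log2 fold changes of Atp5md and Atp5e were 0.04 and 0.03. Atp5b, the most abundant gene, had 2280.0, 2547 and 1309 CPM in vehicle and 2517, 2317 and 2224 CPM in BML-260.

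The balance between isoforms was measured as the ratio of the counts of both genes in the same library, which does not depend on how libraries are scaled. Muscle isoforms predominated for Cox6a and Cox8: per length, the TPM of Cox6a2 was 18.3 to 24.5 times that of Cox6a1, and the TPM of Cox8b 9.35 to 24.0 times that of Cox8a. The Cox7a pair was more even. Cox7a1 was at 2.11, 2.14 and 0.778 times the TPM of Cox7a2 in vehicle and at 2.14, 2.36 and 2.23 times in BML-260, so that the widely expressed isoform exceeded the muscle isoform in vehicle replicate 3 alone. The log2 count ratio of Cox7a1 to Cox7a2 was -0.46 ± 0.82 in vehicle and 0.11 ± 0.07 in BML-260 (SD, n = 3 each; difference 0.57, exact permutation test, 2-sided, p = 0.1, adjusted p = 0.6 over 6 pairs). All BML-260 libraries were above all vehicle libraries for this ratio, which gives the smallest p that 3 against 3 libraries allow. The gap was narrow, with 0.05 in BML-260 replicate 1 and 0.02 in vehicle replicate 1. Without vehicle replicate 3 the difference was 0.10. For Cox8b to Cox8a the log2 count ratios were 3.51, 3.46 and 2.64 in vehicle and 3.67, 4.00 and 3.46 in BML-260 (difference 0.51, exact permutation test, 2-sided, p = 0.2, adjusted p = 0.6), and the difference was 0.23 without vehicle replicate 3. BML-260 replicate 3 and vehicle replicate 2 had the same ratio to 2 decimals. The ratio of Cox6a2 to Cox6a1 differed by 0.13 (4.54 ± 0.19 in vehicle, 4.68 ± 0.23 in BML-260, SD, n = 3 each, exact permutation p = 0.4). The difference was 0.06 without BML-260 replicate 1, 0.07 without vehicle replicate 3, 0.24 without vehicle replicate 2 and 0.27 without BML-260 replicate 3.

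In the remaining 3 pairs the groups overlapped. Cox4i2 was at 0.000901 to 0.00323 times the TPM of Cox4i1, the main isoform of the largest nuclear-encoded subunit, with its highest share in vehicle replicate 3. The group difference of the log2 count ratio was 0.16 (exact permutation p = 0.8). It was 0.66 without vehicle replicate 3, when all BML-260 ratios lay above those of vehicle replicates 1 and 2. The exact permutation p was then 0.1, the smallest that 3 against 2 libraries allow. Without vehicle replicate 1 the difference turned to -0.26 (exact permutation p = 0.7). Cox4i1 itself had 649, 561 and 323 CPM in vehicle and 694, 503 and 584 CPM in BML-260. Ndufa4l2, known as a hypoxia-induced relative of Ndufa4, was at 0.00164 to 0.00389 times the TPM of Ndufa4, with a group difference of 0.33 (exact permutation p = 0.4), and of 0.08 without vehicle replicate 3. For the c subunit genes Atp5g1 and Atp5g3 the TPM ratio ranged from 1.21 to 1.96, and the group difference was -0.04 (exact permutation p = 0.8), and 0.12 without vehicle replicate 3. Atp5g3 had 275, 325 and 124 CPM in vehicle and 292, 244 and 245 CPM in BML-260, and Atp5g1 had 524, 439 and 272 CPM and 535, 439 and 392 CPM. Over the 6 pairs, with all libraries, the adjusted p was between 0.6 and 0.8.

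**Figure D4:**
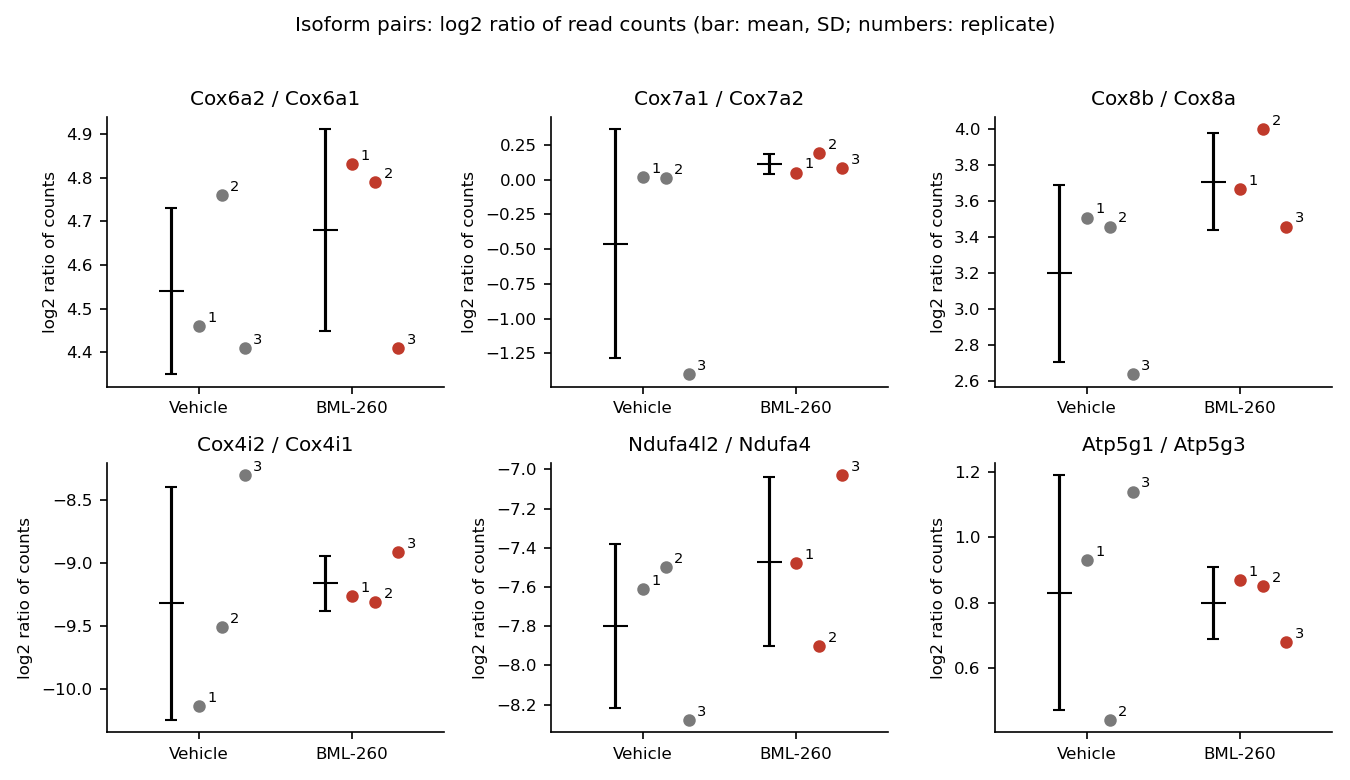
Log2 ratio of the read counts of each isoform pair in each library (grey, vehicle; red, BML-260; numbers, replicate; bars, mean and SD of 3 libraries). Vehicle replicate 3 has the lowest ratio of Cox7a1 to Cox7a2 and of Cox8b to Cox8a, and in these 2 pairs vehicle replicates 1 and 2 lie nearer to the BML-260 mean than vehicle replicate 3 does.

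The promoter windows of the members were searched for motifs of factors known to act on respiratory genes. A window was found for 67 of the 84 members, and the background was 1 window, the first listed, for each of 27025 genes. The NRF1 core was in 8 of the 67 windows (11.9%, against 1.91% of all windows), among them those of Uqcrc1, Uqcr11, Atp5g2 and Cox6a1. The GABP/ETS core was in 16 (23.9% against 9.12%), among them Sdhb, Ndufs8, Cox8a and Atp5e. YY1 cores were in 9 (13.4% against 2.88%), 7 of them in complex I and 2 in complex V. The ERR site was in 2, Sdhd and Atp5g3 (2.99% against 0.407%). The CCAAT box was in 28 (41.8% against 37.9%), the TATA box in 7 (10.4% against 14.2%) and the E-box in 6 (8.96% against 16.1%). The windows of the members were richer in G and C than all windows (median 57.3% against 52.7%), and cores rich in G and C can be more frequent for that reason alone. No test was made of these shares.

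The other genes on which the complexes depend were described by lists of textbook members. For 49 tested assembly factors, which build the complexes and are not part of them, 45 estimates were above 0 (49.5% of all tested genes) and 4 below, with a median log2 fold change of 0.204 (0.031 without vehicle replicate 3, 32 above and 17 below). At the fold and p threshold there was 1 higher and 0 lower, where 0.896% and 4.86% of all tested genes were. This was Cox11, a copper chaperone of complex IV, with 19.0, 17.7 and 9.82 CPM in vehicle and 25.6, 26.8 and 19.8 CPM in BML-260. All 3 of its BML-260 libraries were above the vehicle libraries, as was so for 6 of the 49 factors and 5.23% of all tested genes. Its BML-260 replicate 3 and vehicle replicate 1 were close. The log2 fold change of Cox11 was 0.64 (SE 0.25, adjusted p = 0.788 by edgeR's quasi-likelihood test), and 0.39 without vehicle replicate 3. Coa7, another complex IV factor, had a log2 fold change of 0.46 (SE 0.25). The factors with the smallest p for the other complexes were Tmem126b (0.26, SE 0.15) and Ecsit (0.30, SE 0.18) for complex I, Sdhaf3 (0.33, SE 0.25) and Sdhaf2 (0.17, SE 0.18) for complex II, Uqcc1 (0.29, SE 0.19) and Uqcc3 (0.28, SE 0.21) for complex III, and Atpaf2 (0.24, SE 0.19) and Atpaf1 (0.23, SE 0.26) for complex V. None of these 9 was at the threshold. Leaving out vehicle replicate 3 brought Coa7 to 0.21, Tmem126b to 0.19, Ecsit to 0.15, Sdhaf3 to 0.15, Sdhaf2 to 0.02, Uqcc1 and Uqcc3 to 0.12, Atpaf2 to 0.08 and Atpaf1 to -0.04.

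The 13 protein genes of mitochondrial DNA, which supply the partner subunits, summed to 66278, 72102 and 26155 CPM in vehicle and to 71818, 60224 and 54492 CPM in BML-260. All 13 were lowest in vehicle replicate 3, by a median of 1.52 on the log2 scale below vehicle replicates 1 and 2, and 7 estimates were above 0 and 6 below, with a median log2 fold change of 0.047. Without vehicle replicate 3 all 13 were below 0, with a median of -0.288, and 1 of them, ND4L (-0.71), was lower at the fold and p threshold (2.92% of all genes tested in that fit). The median was also below 0 without BML-260 replicate 1 (-0.074) and without BML-260 replicate 2 (-0.065). It was above 0 without vehicle replicate 1 (0.098), vehicle replicate 2 (0.442) or BML-260 replicate 3 (0.169). BML-260 replicate 3 was the lowest BML-260 library for all 13. ND3 (0.29, SE 0.37, and -0.04 without vehicle replicate 3) and ND4L (-0.29, SE 0.52), both subunits of complex I, had the smallest p-values, and no gene of this list was at the fold and p threshold with 6 libraries.

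Among 14 TCA cycle genes, 13 estimates were above 0 with a median of 0.25, and 8 were above 0 without vehicle replicate 3 with a median of 0.029. The median was 0.46 without vehicle replicate 2. The smallest p-values were those of Suclg2 (0.24, SE 0.18) and Suclg1 (0.36, SE 0.27), subunits of succinyl-CoA ligase, which were at 0.11 and 0.09 without vehicle replicate 3. Of 78 mitochondrial ribosome genes, 63 were above 0 and 15 below (median 0.11, and -0.015 without vehicle replicate 3), with the smallest p for Mrps25 (0.39, SE 0.19) and Mrpl41 (-0.27, SE 0.14), at 0.21 and -0.21 without that library. In neither list was a gene at the fold and p threshold. Of the 15 regulators of mitochondrial biogenesis, 10 were above 0 and 0 at the threshold, with a median of 0.133 (0.043 without vehicle replicate 3 and 0.021 without BML-260 replicate 2). The smallest p-values were those of Nrf1 (-0.35, SE 0.16), a transcription factor for respiratory genes, and Ppargc1b (0.51, SE 0.37), a coactivator, at -0.20 and 0.16 without vehicle replicate 3. Among 14 genes of electron carriers and metabolite exchange the median was 0.19 (-0.048 without vehicle replicate 3), and 1 gene was lower at the threshold (4.86% of all tested genes) and 0 higher (0.896%). That gene was Ucp2, an inner membrane carrier of the uncoupling protein family, with 6.08, 8.06 and 9.41 CPM in vehicle and 3.76, 3.33 and 4.91 CPM in BML-260. Its log2 fold change was -0.98 (SE 0.23, adjusted p = 0.607 by edgeR's quasi-likelihood test), and -0.82 without vehicle replicate 3. Slc25a5, an ADP/ATP carrier, had 37.7, 44.4 and 45.8 CPM in vehicle and 33.1, 35.3 and 31.3 CPM in BML-260 (log2 fold change -0.36, SE 0.14, adjusted p = 0.788 by the same edgeR test, and -0.30 without vehicle replicate 3). For Ucp2 and Slc25a5, 2 of the 14 genes, all BML-260 libraries were below the vehicle libraries, as was so for 6.91% of all tested genes.

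Markers of fiber types and of other cells also differed in vehicle replicate 3. In whole muscle, fewer fibers of a type and less RNA per fiber cannot be told apart. The 7 fast IIb genes, of which Myh4 (0.48, SE 0.38) and Pvalb (0.66, SE 0.57) had the smallest p, were all lowest there, and summed to 81765, 80688 and 50249 CPM in vehicle and 89552, 85385 and 100220.0 CPM in BML-260. In TPM they summed to 68024, 58412 and 60957 in vehicle and 67118, 66498 and 75890.0 in BML-260, where vehicle replicate 2 was the lowest, so that their low level in vehicle replicate 3 depends on the scaling. Leaving out that library brought Myh4 to 0.24, Pvalb to 0.20 and the median of the list from 0.339 to 0.197. The 7 slow fiber genes summed to 74.2, 89.5 and 358 CPM in vehicle and 76.5, 123 and 86.1 CPM in BML-260, with 6 of the 7 highest in vehicle replicate 3. Atp2a2 (-0.96, SE 0.35) and Tnni1 (-1.57, SE 0.65) were lower at the fold and p threshold with 6 libraries (4.86% of all tested genes), and the median of the list was -1.283. The median turned to 0.694 without vehicle replicate 3, with 5 of the 7 above 0. At the threshold 4 were then higher, among them Myl2 (3.11) and Myh7 (2.92), and 1 was lower, Atp2a2 (-0.38), beside 1.06% and 2.92% of all genes tested without that library. Tnni1 was at -0.63. The 2 genes of IIa and IIx fibers, Myh2 (-0.25, SE 0.43, and 0.40 without vehicle replicate 3) and Myh1 (-0.18, SE 0.32, and -0.26), summed to 10450, 19166 and 14446 CPM in vehicle and 11786, 13582 and 13315 CPM in BML-260.

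Macrophage markers (6 genes, all highest in vehicle replicate 3) summed to 110.8, 114 and 319 CPM in vehicle and 83.2, 70.2 and 80.9 CPM in BML-260, and 5 of the 6 were lower at the threshold (4.86% of all tested genes), led by Adgre1 (-1.08, SE 0.23) and Csf1r (-0.86, SE 0.20). With that library left out these were at -1.05 and -0.61, 4 of the 6 were lower at the threshold (2.92% of all tested genes), and the median of the list moved from -1.196 to -0.571. The 3 erythroid genes summed to 489, 555 and 1592 CPM in vehicle and 456, 402 and 538 CPM in BML-260, with Hba-a1 (-1.18, SE 0.43) and Alas2 (-1.05, SE 0.41) lower at the threshold (4.86% of all tested genes). In the other 5 libraries these were at -0.45 and -0.32, with 1 of the 3 lower at the threshold (2.92% of all tested genes), and the median moved from -1.051 to -0.325. Fibroblast genes (5) summed to 845, 508 and 766 CPM in vehicle and 819, 543 and 474 CPM in BML-260, with 1 of them, Col1a1 (-0.43, SE 0.18), lower at the threshold (4.86% of all tested genes) and Pdgfra (-0.32, SE 0.23) next. Col1a1 was at -0.31 and Pdgfra at -0.13 without vehicle replicate 3, and the median moved from -0.199 to -0.306 with 1 gene, Col3a1 (-0.39), lower at the threshold (2.92% of all tested genes). Sums of 4 endothelial genes, led by Pecam1 (-0.15, SE 0.16, and -0.02 without vehicle replicate 3) and Kdr (0.26, SE 0.31, and -0.05), lay between 105 and 140 CPM in all libraries. Of 5 adipocyte genes 4 were tested, with sums between 122 and 167 CPM, and Adipoq (-1.59, SE 0.78) and Cidec (-1.56, SE 0.83) were several times higher in vehicle replicate 3 than elsewhere. Without that library each was at 0.21. Fabp4, which made up most of these sums and is named here after its values were seen, did not follow them, with 121, 165 and 139 CPM in vehicle and 148, 130.4 and 147 CPM in BML-260 (0.00, SE 0.16). Lep, the adipocyte gene left untested, was at or below 0.405 CPM in every library. The part of fiber type, of macrophages and of blood in the subunit levels of vehicle replicate 3 was not tested.

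**Figure D5:**
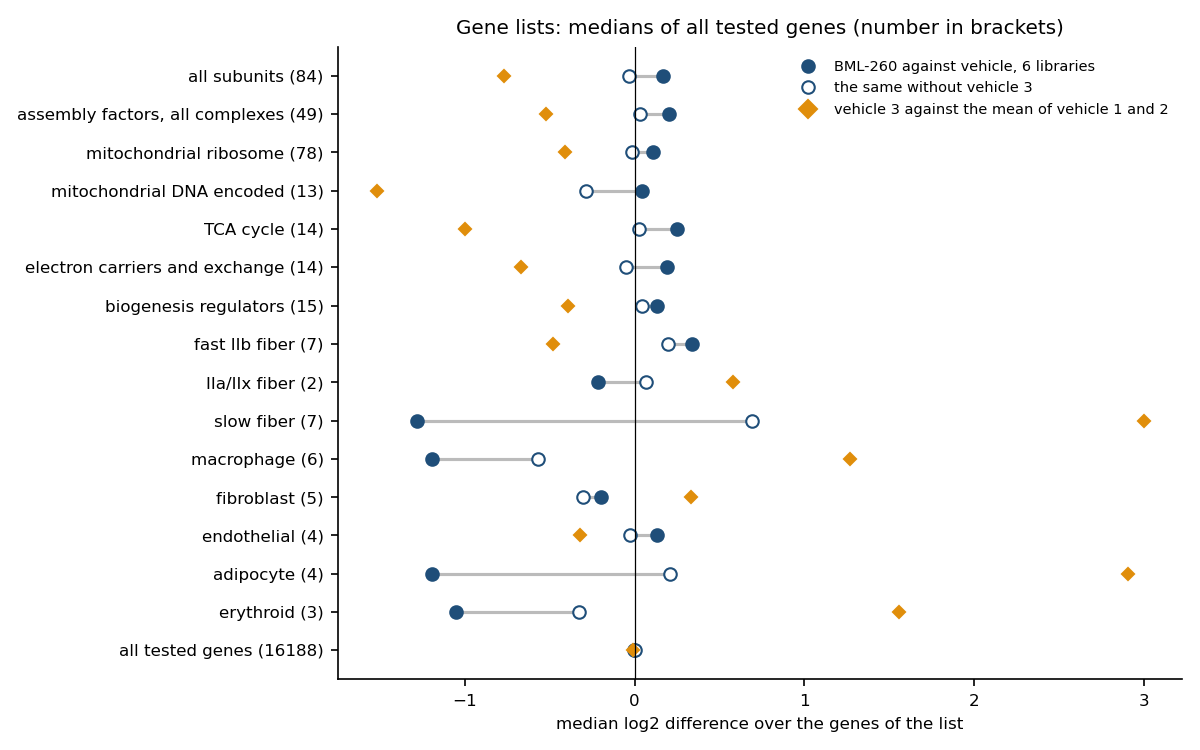
Median log2 difference over the tested genes of each list (number of genes in brackets): BML-260 against vehicle with 6 libraries (filled), the same without vehicle replicate 3 (open), and vehicle replicate 3 against the mean of vehicle replicates 1 and 2 (diamonds). In CPM, the scale used here, the subunits and the other mitochondrial lists lie below 0 in vehicle replicate 3. There, slow fiber, macrophage, adipocyte and erythroid genes lie above 0. In summed TPM that library was the lowest for the subunits, mitochondrial DNA, the TCA cycle and electron carriers. It was not the lowest for assembly factors or biogenesis regulators, and it was the highest for the mitochondrial ribosome (4121, 3488 and 4235 TPM in vehicle).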

How the data were processed

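Total RNA from the TA muscle was sequenced for the authors by a service provider, Macrogen. Per the submitters' processing notes, reads were trimmed with Trimmomatic 0.38, mapped to mm10 with HISAT2 2.1.0 and Bowtie2 2.3.4.1, and assembled with StringTie 2.1.3b. The authors deposited raw counts per gene, without normalization, in 1 table and TPM per gene, scaled for length and library total, in a table per library. The counting rules, and whether strand was used, are not given in the sources used here, so that reads of overlapping or near-identical genes may have been shared.

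Symbols and coordinates were taken by gene identifier from RefSeq (GRCm38.p6, the assembly of mm10), and promoter windows from the same source. Counts were analysed with edgeR 4.0.16 in R 4.3.3: genes were kept by filterByExpr (16188, including all 84 subunits), scaled by TMM and tested with the quasi-likelihood F-test, with Benjamini-Hochberg adjustment over all 16188 genes. A positive log2 fold change means a higher level with BML-260, and SE is its standard error. A call meant an adjusted p under 0.05 or, separately, a 1.3-fold change and an unadjusted p under 0.05. For isoform ratios an exact permutation test was used, whose smallest p with 3 against 3 libraries is 0.1. Alternatives were RLE and upper quartile factors, no filter, at least 10 counts in every library, DESeq2 1.42.0, limma 3.58.1 (voom with quality weights, and trend on log2 TPM plus 1 or 0.1), a replicate block, and each library left out. The scripts were tested on simulated data. Figures were drawn with matplotlib 3.10.9.

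Genes named are the 3 with the smallest p and the highest and lowest mean TPM in each complex, the isoform pairs, any member past a threshold, and the 2 with the smallest p in each other list. The members and lists were chosen with earlier results of these data known. The sources used here name no batches, and p-values measure the spread between 3 mice per group. The authors' sources give ages other than the labelled 24 months for these mice, and the label was used.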

Additional observations from a re-analysis of the deposited data

How the results depend on the processing

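The direction of the subunits rested on vehicle replicate 3. When each library was left out in turn, the number of subunits above 0 ranged from 24 to 80 and the median log2 fold change from -0.035 to 0.298 over all subunits, from -0.033 to 0.357 in complex I, from -0.004 to 0.371 in complex II, from -0.05 to 0.325 in complex III, from -0.055 to 0.234 in complex IV and from -0.056 to 0.291 in complex V, and all lowest values came without vehicle replicate 3. The difference in the share of TPM ranged from -0.074 to 0.325 percentage points. Subunits lower at the fold and p threshold ranged from 0 to 1 and those higher from 0 to 3 (Ndufa12, Ndufb4b and Ndufb4c, without vehicle replicate 1, where 4.99% of 16719 tested genes were higher). Log2 fold changes ranged from 0.22 to 0.79 for Ndufb4c, from 0.22 to 0.80 for Ndufb4b, from -0.01 to 0.53 for Sdha, from -0.02 to 0.57 for Uqcrc1, from -0.05 to 0.42 for Uqcrc2 and from -0.49 to -0.24 for Cox8a. The isoform difference ranged from -0.26 to 0.66 for Cox4i2 to Cox4i1 and from -0.23 to 0.12 for Atp5g1 to Atp5g3. The median ranged from -0.288 to 0.442 for genes of mitochondrial DNA, from -0.015 to 0.225 for the mitochondrial ribosome and from -0.048 to 0.312 for electron carriers and exchange.

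In limma the median of complex III was -0.001 with voom and quality weights, and that of complex IV was -0.029 on log2 TPM with either pseudocount. On log2 TPM the median of all genes was -0.089 (plus 1) or -0.136 (plus 0.1) and that of the subunits 0.064. Over all subunits, voom with quality weights gave 0.024, with 55 above 0. The count lower at the threshold was 0 with DESeq2, with voom, with both TPM analyses and with the replicate block. The count of subunits at an adjusted p under 0.05 was 0 under every alternative run. Over all genes it was 82 with DESeq2, 9 without vehicle replicate 1, 6 without vehicle replicate 3, 1 each with no filter, with at least 10 counts and with voom, and 0 in the others. With the replicate block, 1 subunit was higher at the threshold, Ndufb4c (0.50), where 2.01% of all 16188 tested genes were. Cox8a had -0.39, the median of all subunits was 0.218, and no other subunit call changed. Correlations of same-numbered libraries were 0.162, 0.054 and 0.11, each library correlating best with its own number, but nothing in the labels pairs the mice. The causes of these shifts were not tested. Relative to the count, counting error is largest for the least abundant genes, such as Cox4i2 (28 to 64 counts per library). Depth itself was not varied.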
